A study of Mus musculus with 2 samples.

Results

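The TOX family of mouse DNA-binding proteins was examined in sorted endocrine progenitor cells of the embryonic pancreas. Its 4 genes, Tox, Tox2, Tox3 and Tox4, were taken by symbol from the 23284 gene symbols of the count files, and all 4 were present in both. The family was selected on the read counts of Tox3, an abundant transcription factor transcript in these libraries, so the levels below are a description and were not tested. The study measured 2 RNA-seq libraries of 1 group. These were GFP-positive cells sorted from whole pancreata of NGN3-EGFP embryos at e15.5 on a mixed background that includes C57BL6. The labels give no promoter or allele for the reporter, no number of pooled embryos and no separate litters. The spread between replicates may therefore be technical. With 1 group, no condition could be compared.

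The TOX proteins carry a single HMG box, a fold that binds in the minor groove and bends DNA. TOX is best known from the thymus, where it acts in the development of CD4 T cells, and from exhausted T cells. TOX2 has been described in natural killer cells and follicular helper T cells. TOX3 acts with CREB and its co-activators in calcium-dependent transcription in neurons. TOX4 is a subunit of the PTW/PP1 phosphatase complex, which binds chromatin and dephosphorylates RNA polymerase II. The 4 proteins differ mainly outside the HMG box.

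The coding sequences of the members are shown where they are most alike over 30 aligned codons. This window alone does not decide whether short reads can be assigned to one member. For that, 25-base words shared over the whole transcripts are given below. The members were aligned by codon from the longest coding transcripts of GENCODE M21 (build GRCm38), and the HMG box was not mapped. From this alignment, the gap-free window of 30 codons with the most identical bases was taken. It is given 5′ to 3′ on the coding strand, and capitals mark bases that are not the same in all 4 members.
Tox: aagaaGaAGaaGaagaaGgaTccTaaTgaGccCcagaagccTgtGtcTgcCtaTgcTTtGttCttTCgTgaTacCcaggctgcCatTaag
Tox2: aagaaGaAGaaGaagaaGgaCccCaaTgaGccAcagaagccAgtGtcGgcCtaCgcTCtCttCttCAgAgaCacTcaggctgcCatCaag
Tox3: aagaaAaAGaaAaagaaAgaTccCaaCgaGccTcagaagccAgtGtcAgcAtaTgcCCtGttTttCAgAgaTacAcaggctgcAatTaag
Tox4: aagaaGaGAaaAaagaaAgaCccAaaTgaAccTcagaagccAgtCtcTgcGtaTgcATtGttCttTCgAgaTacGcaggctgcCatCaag

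Of the 90 bases in this window, 64 were identical in all 4 members and 26 were not. Of these 26, 23 were the third base of a codon. Pairs of members were 80.0% to 84.4% identical within the window and 45.6% to 56.9% identical over the other aligned coding bases. Tox and Tox2 were the most alike pair in the window, at 84.4%, and Tox3 and Tox were 81.1% identical there. Over the whole coding sequences, the longest run of bases shared by any pair was 24, between Tox and Tox3. No 25-base word of a member's transcripts was found in another member.

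Tox3 was the most abundant member in both libraries. It had 10995 reads in replicate 1 and 11142 in replicate 2. As library-scaled CPM (counts per 1000000 reads), its level was 884 in replicate 1 and 921 in replicate 2. The exact 95% intervals of Clopper and Pearson were 867 to 900.5 and 904 to 938 CPM. The mean was 902 ± 26.3 CPM (SD, n = 2). Tox3 ranked 66th of all genes in replicate 1 and 68th in replicate 2. All intervals describe counting error alone, as the sources name no molecular identifiers and reads may be copies of 1 molecule.

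Tox came next, and it was the member with the widest gap between the libraries among those well covered. It had 2247 reads in replicate 1 and 5395 in replicate 2. Its level was 181 CPM in replicate 1 (interval 173 to 188) and 446 CPM in replicate 2 (434 to 458), with a mean of 313 ± 188 CPM (SD, n = 2). It ranked 1143rd in replicate 1 and 255th in replicate 2. Replicate 2 was the higher library, and the counting intervals did not overlap.

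Tox4 was lower, with 724 reads in replicate 1 and 967 in replicate 2. Its level was 58.2 CPM (54.0 to 62.6) and 79.9 CPM (75.0 to 85.1), with a mean of 69.1 ± 15.4 CPM (SD, n = 2). It was again higher in replicate 2. The count of Tox4 is the least certain of those with many reads. In the annotation 366 of its 5350 exon bases overlap Mettl3 and 195 overlap Rab2b, both on the opposite strand, and of its 25-base words 70.1% were its own. The gene Gm5828, which the count files do not list, shared 915 of the 5326 words. For Tox, 260 of its 3961 exon bases overlap Gm11802 on the opposite strand, and 93.5% of its 25-base words were its own. Gm11802 is not listed in the count files either. The sources used here state neither the strand setting nor what was done with reads that match several places. Mettl3 had 231 and 258 reads in replicates 1 and 2, and Rab2b had 1189 and 885.

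Tox2 transcripts were scarce. It had 1 read in replicate 1 and 26 in replicate 2, which is 0.0804 CPM (interval 0.00204 to 0.448) and 2.15 CPM (1.40 to 3.15). Replicate 1 was below the limit of 3 reads that a count of 0 allows, 0.241 CPM. With a detection limit of 1 CPM in each library, 3 of the 4 members were detected, and Tox2 passed in replicate 2 only.

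**Figure D1:**
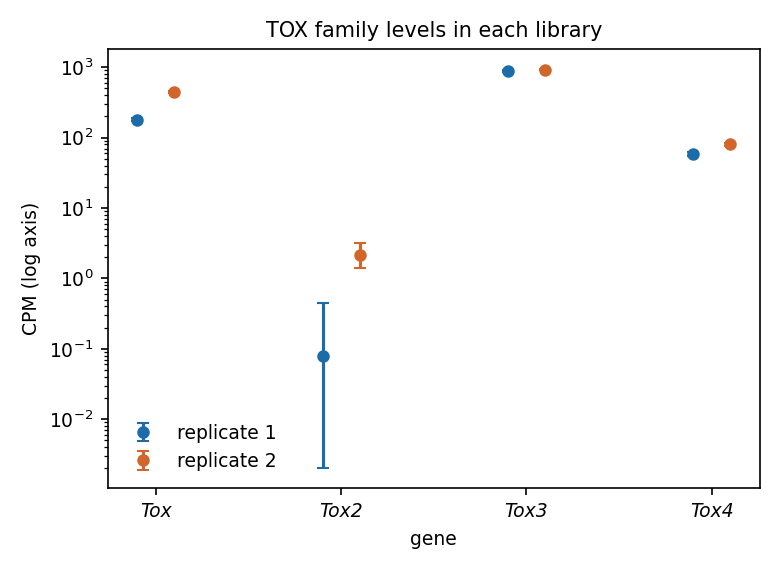
Levels of the 4 genes in CPM (log axis) in replicate 1 (blue) and replicate 2 (orange); bars are exact Clopper-Pearson 95% intervals for counting error. Tox3 is highest in both libraries at 884 and 921 CPM, Tox is higher in replicate 2, and Tox2 rests on 1 and 26 reads.

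Per kb of exon, the scale used here to compare genes, the order was Tox3, Tox, Tox4 and Tox2 in both libraries. Tox3 was at 263 and 274 CPM per kb in replicates 1 and 2, Tox at 45.6 and 113, Tox4 at 10.9 and 14.9, and Tox2 at 0.0253 and 0.678. No neighbours in this order overlapped. The ratio of Tox3 to Tox was 5.78 in replicate 1 and 2.44 in replicate 2, and that of Tox3 to Tox4 was 24.2 and 18.4. With exons of all annotated transcripts, which lengthen Tox from 3961 to 7609 bases, the ratio of Tox3 to Tox was 11.1 and 4.68. Tox was above Tox4 by 4.19-fold and 7.54-fold. Tox4 was above Tox2 by 22.1-fold in replicate 2, while in replicate 1 Tox2 was too scarce for a ratio. For 2 libraries the smallest p of an exact permutation test is 0.5, so the order was not tested.

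Tox3 made up most of the family's transcripts. Per kb of exon it held 82.3% of the family sum in replicate 1 and 68.2% in replicate 2. Tox held 14.3% and 28.0%, or 8.03% and 17.0% with exons of all annotated transcripts, and Tox4 held 3.40% and 3.71%. Thus the share of Tox3 was lower in replicate 2 although its own level was not.

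By level, the Tox3 transcript stood among the higher of the listed endocrine transcription factors. When the family was ordered with 25 endocrine transcription factors by CPM per kb, Tox3 was 4th of 29 genes in each library. Of the 25 factors, 2 were above it in both libraries. These were Neurog3 and Insm1. Neurog3, the bHLH factor that commits progenitors to the endocrine fate, was at 478 and 358 CPM per kb. Insm1, a zinc finger transcriptional repressor that acts in endocrine development, was at 332 and 281. Nkx2-2, a homeodomain factor of several islet cell types, lay on either side of Tox3, at 314 and 235 CPM per kb. Mlxipl, a glucose-responsive factor, was below Tox3 in both libraries, at 208 and 243. Myt1, a zinc finger factor that acts with Neurog3, was at 130 and 90.5.

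By the distance of log2 CPM per kb over the 2 libraries, among 46 detected endocrine and HMG-box genes, the genes nearest to Tox3 were Insm1, Nkx2-2 and Mlxipl, with distances of 0.33, 0.34 and 0.38. Among the 3 nearest to Tox were Rfx6 (0.54), a winged-helix factor of islet development at 64.8 and 98.1 CPM per kb, and Pax6 (0.94), a paired-box factor of hormone-producing cells at 84.2 and 91.2. Tox was the 19th of the 29 genes in replicate 1 and the 11th in replicate 2. With exons of all annotated transcripts Tox was the 21st and the 14th, and the distances were taken with basic transcripts only. Tox4 was the 24th in both libraries, and its nearest genes were the HMG-box genes Sox12 (0.41), Hmgxb4 (0.47) and Hmgb2 (0.63). With 2 libraries this distance reflects level more than pattern, and the family was chosen for the level of Tox3. The highest of the other HMG-box genes by the mean, Hbp1, was at 59.2 and 49.7 CPM per kb. Among these candidates, only endocrine factors could therefore be nearest to Tox3.

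**Figure D2:**
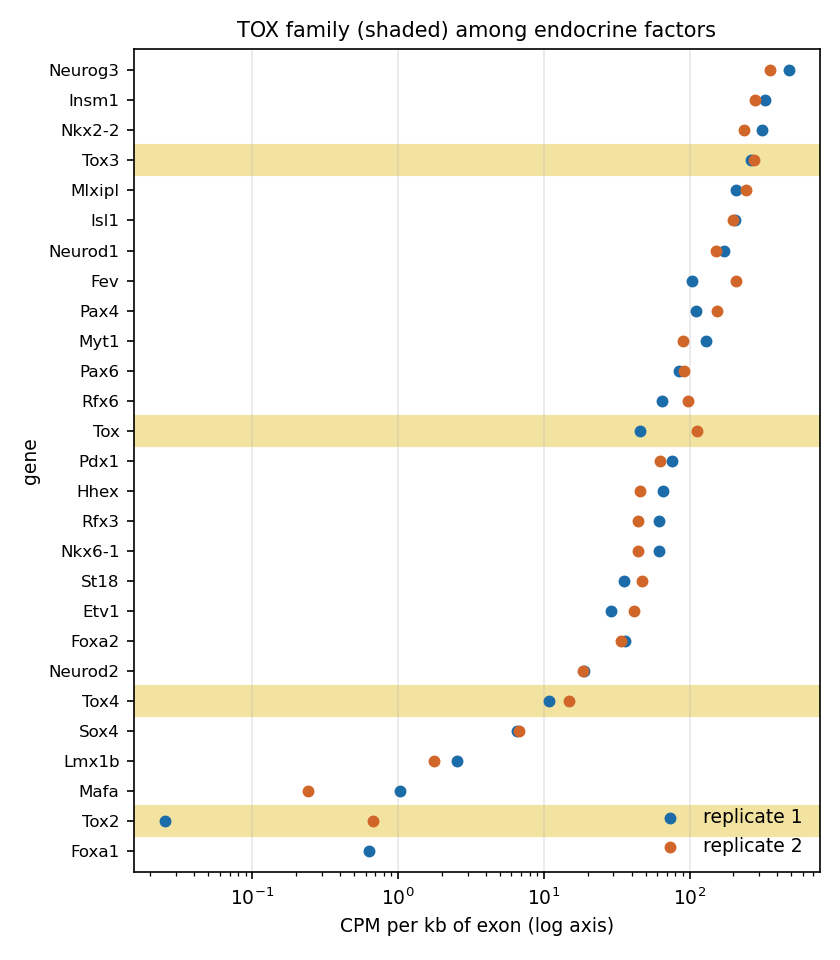
CPM per kb of exon (log axis) of 23 of the endocrine transcription factors and the TOX family (shaded rows), ordered by the mean; blue is replicate 1 and orange replicate 2, and a value of 0 is not drawn. Tox3 lies next to Nkx2-2 and above Mlxipl, and the points of Tox lie further apart than those of its neighbours.

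Tox3 was also above each of 40 other genes with an HMG box in both libraries. Of these, 24 were detected at 1 CPM in both libraries and 6 had no read in either. By the mean, the highest of the 40 encoded proteins of chromatin and repression. Hbp1, a repressor of cell cycle genes, was at 59.2 and 49.7 CPM per kb in replicates 1 and 2. Smarce1, a subunit of the BAF remodelling complex that was chosen after its values were seen, was at 53.8 and 41.3. Tox was above both in replicate 2 and below both in replicate 1. Of the 10 genes in this subgroup all 10 were detected. Among them were the chromatin remodelling subunit gene Pbrm1 at 41.2 and 17.3 CPM per kb and the repressor gene Cic at 29.4 and 14.5. Bbx was at 14.7 and 22.5 CPM per kb.

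Of 20 SOX genes, whose products carry the HMG box that recognises a defined DNA sequence, 7 were detected in both libraries. Sox9, a factor of the duct and of pancreatic progenitors, was at 21.3 CPM per kb in each. Sox12 was at 11.9 and 11.4, Sox6 at 10.9 and 5.16, Sox4, which acts in endocrine differentiation, at 6.55 and 6.72, and Sox11 at 3.16 and 2.88. Of the 4 TCF/LEF genes, the nuclear effectors of Wnt signalling, 2 were detected in both libraries, Tcf7l2 at 18.4 and 13.0 CPM per kb and Tcf7l1 at 5.27 and 1.93. Tcf7 and Lef1, which like Tox act in T cells, had 1 and 14 reads and 1 and 2 reads. Of the 4 HMGB genes, which encode abundant architectural proteins, Hmgb3, Hmgb2 and Hmgb1 were at 17.8 and 11.6, 13.2 and 10.1, and 4.19 and 13.3 CPM per kb, and Hmgb4 had no read. Ubtf of RNA polymerase I transcription was at 5.59 and 9.38, and Tfam of mitochondrial transcription at 7.46 and 10.9. Tox4 lay in the midst of these genes, with 11 of the 40 above it by the mean.

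**Figure D3:**
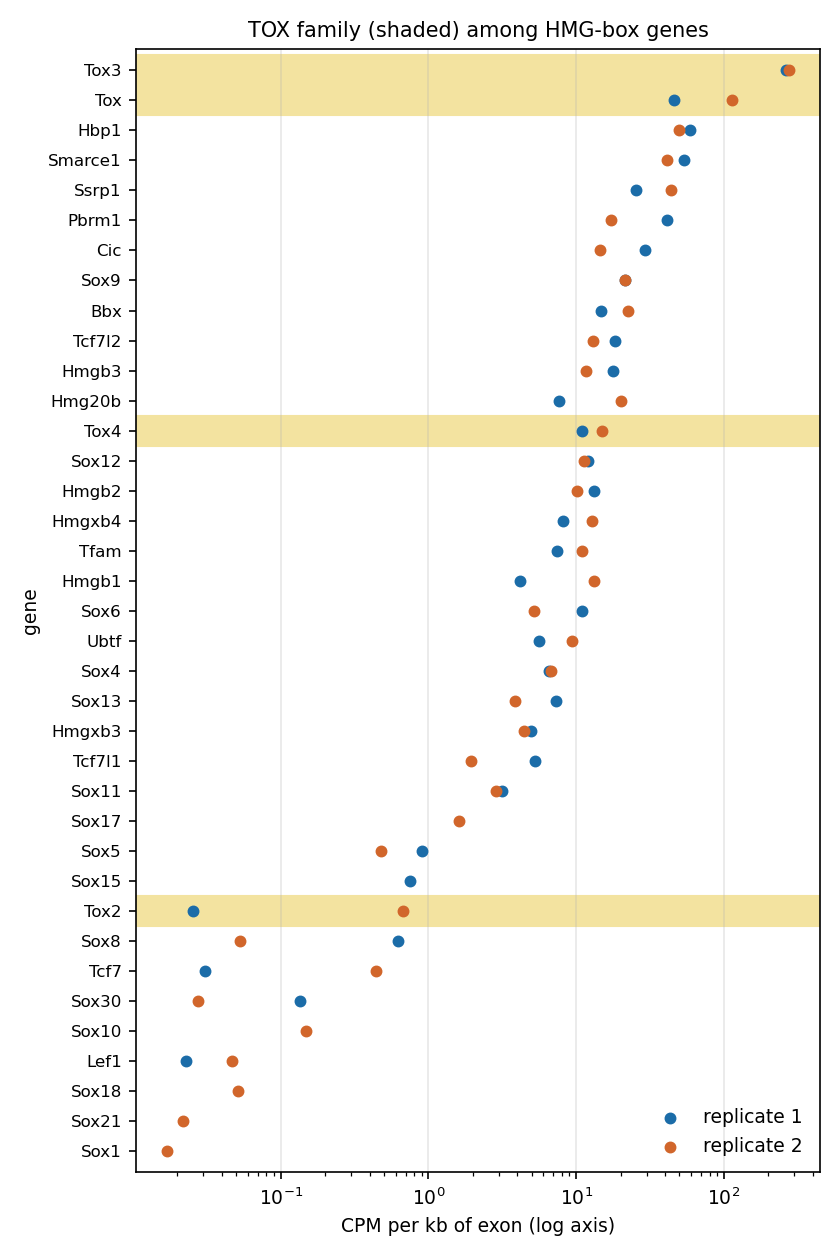
CPM per kb of exon (log axis) of the TOX family (shaded rows) and 33 of the other HMG-box genes with a read in either library, ordered by the mean; blue is replicate 1 and orange replicate 2, and a value of 0 is not drawn. Tox3 stands apart at the top at 263 and 274, Tox overlaps Hbp1 and Smarce1, and Tox2 lies with the scarce SOX genes.

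Transcripts of the proteins known to act with TOX4 were detected throughout, 5 of 5 in both libraries. Ppp1r10, which encodes the scaffold PNUTS, was at 52.5 and 68.8 CPM per kb in replicates 1 and 2, and Wdr82 at 25.1 and 27.0. The catalytic subunits Ppp1cb, Ppp1ca and Ppp1cc were at 118 and 102, 72.4 and 69.9, and 12.7 and 7.35. Tox4 was below each of them in both libraries other than Ppp1cc, whose values lie on either side. Genes of CREB and its co-activators, which act with TOX3, were likewise detected 5 of 5. Crebbp was at 58.5 and 43.9 CPM per kb, Ep300 at 40.6 and 58.6, Cited2 at 56.3 and 83.3, Cited1 at 18.7 and 13.1, and Creb1 itself at 6.46 and 6.74. Each was below Tox3 in both libraries.

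Because Tox is known from lymphocytes, markers of other cells were set beside it. Of 13 T and NK cell markers none reached 1 CPM in both libraries, and 9 had no read in either, among them the T cell receptor subunit genes Cd3d, Cd3e and Cd3g, the co-receptor genes Cd4 and Cd8a, and Rag1. Together its members had 2.09 CPM in replicate 1 and 2.89 in replicate 2, against 181 and 446 CPM of Tox. Its highest member was the kinase gene Lck, at 0.804 and 2.73 CPM. Markers of duct cells summed to 674 and 619 CPM (6 of 6 detected, Krt7 highest) and those of acinar cells to 1539 and 1197 CPM (4 of 6, Ctrb1 highest, no read of Pnlip). Mesenchyme markers summed to 355 and 96.6 CPM (4 of 7, Col1a2 highest), endothelial markers to 15.8 and 0.909 CPM (0 of 5, Cdh5 highest) and neural crest markers to 9.32 and 3.72 CPM (1 of 5, no read of Foxd3). The sums of these 5 lists were lower in replicate 2, where Tox, Tox2, Tox3 and Tox4 were higher, and their part in the members' differences was not tested. By gene, the exact binomial test described below called 7 of 7 mesenchyme markers tested higher in replicate 1 (median log2 ratio -2.70). Of 4 acinar markers tested it called 2 higher in each library, with a median of 0.25, and Krt7 was 1.21-fold higher in replicate 2. Of all genes tested, it called 41.7% higher in replicate 1 and 44.1% in replicate 2. In sorted pools, fewer cells with a transcript and less of it per cell cannot be told apart.

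The reads of replicate 2 were tested against those of replicate 1 gene by gene, by an exact binomial test (two-sided), with Benjamini-Hochberg adjustment over 13416 genes with at least 10 reads. This compares 2 libraries of 1 group, not conditions, and it counts sampling error as the only source of spread. All 4 members differed, and each was higher in replicate 2. Of all genes tested, 85.8% differed, so that being called does not set the members apart. The share toward replicate 2 was 44.1% and that toward replicate 1 was 41.7%. The shared direction of the 4 members was not tested.

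Tox was 2.47-fold higher in replicate 2 (95% interval 2.35 to 2.59, adjusted p = 1.68e-309 by the exact binomial test). Tox4 was 1.37-fold higher (1.25 to 1.51, adjusted p = 1.69e-10 by the same exact test) and Tox3 1.04-fold higher (1.01 to 1.07, adjusted p = 0.00276). The ratio of Tox2 was 26.7, with an interval from 4.39 to 1096 (exact binomial adjusted p = 2.54e-07), since it rests on 1 read in replicate 1. Tox and Tox2 differed over 2-fold with an adjusted p under the threshold, as did 47.8% of all genes tested in either direction and 25.6% toward replicate 2.

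The spread between libraries depends strongly on level, so each member was also set beside genes with a mean CPM within 2-fold of its own. For Tox3 there were 219 such genes tested, of which 1 differed over 2-fold, and the median absolute log2 ratio was 0.20 against 0.06 for Tox3. For Tox4 it was 0.63 over 4000 genes, against 0.46 for Tox4. For Tox2 it was 2.98 over 1473 genes, against 3.25 for Tox2, and 39.8% of those genes differed at least as much. For Tox it was 0.35 over 1241 genes, against 1.30, and 3.22% of those genes differed at least as much as Tox. Tox3 and Tox4 thus differed less between the libraries than the median gene of their level, Tox more, and Tox2 only slightly more.

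Genes on the lists of HMG-box genes, endocrine factors and partner proteins were called in both directions, as were genes in general. Of all genes tested, 44.1% were called higher in replicate 2 and 41.7% in replicate 1, and 47.8% were called and differed over 2-fold. Being called thus does not set the lists below apart. Of 27 other HMG-box genes tested, the exact binomial test called 9 higher in replicate 2 and 13 in replicate 1, and they had a median log2 ratio of -0.16 against 0.04 over all genes. Hmgb1 was 3.16-fold and Hmg20b, chosen after its values were seen, 2.61-fold higher in replicate 2, while Pbrm1, Cic and Sox6 were at 0.420, 0.494 and 0.471 of their level in replicate 1. Of 25 endocrine transcription factors, 9 were higher in replicate 2 and 12 in replicate 1, with a median of -0.09. Neurog3 was at 0.750 and Insm1 at 0.849 of their level in replicate 1, whereas Rfx6 was 1.51-fold higher in replicate 2. Of the 5 genes of the phosphatase complex 1 was higher in replicate 2, Ppp1r10 at 1.31-fold, and 2 in replicate 1. Of the 5 genes of CREB and its co-activators, 2 were higher in replicate 2, Ep300 at 1.44-fold and Cited2 at 1.48-fold, and 2 in replicate 1, Crebbp at 0.750 and Cited1 at 0.700.

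**Figure D4:**
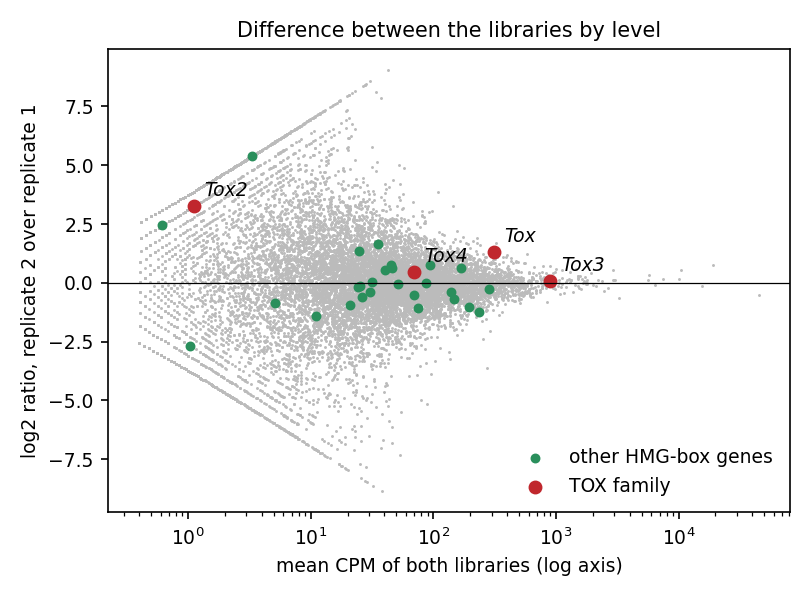
Log2 ratio of replicate 2 over replicate 1 against the mean CPM (log axis) for 13416 genes (grey), the other HMG-box genes (green) and the TOX family (red); each point is 1 gene and the line marks no difference. Tox3 lies at 0.06 and Tox4 at 0.46 inside the cloud for their level, Tox at 1.30 near its upper edge, and Tox2 at 3.25 among scarce genes.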

How the data were processed

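RNA was measured by sequencing in 2 libraries of sorted cells. The deposited values are raw read counts per gene symbol, whole numbers summing to 12495143 in replicate 1 and 12043734 in replicate 2. Per the submitters' processing notes, FastQC, cutadapt, TopHat2 2.0.4, Cufflinks 2.0.2, DESeq and the build mm9 were used, with no role or order given. Which program counted the reads, and on which annotation, is not given in the sources used here.

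Counts were scaled with TMM factors (edgeR 4.0.16, R 4.3.3). Levels of different genes were compared as CPM per kb, with exon lengths from the union of GENCODE M21 basic transcripts. That annotation is on another build than the files, so no coordinates are given; all 4 members and all 114 listed symbols matched. Coding sequences were aligned by codon with MAFFT 7.526. Ratios between libraries were tested by exact binomial tests (SciPy 1.17.1, adjusted p threshold 0.05). These were checked on simulated counts that held counting error alone, which is what the test assumes. The check therefore does not cover further spread between the libraries. Log2 ratios used a prior count of 2. The members and lists were chosen with earlier results of these data known. Named were the 4 members, every gene of subgroups with up to 5 genes, the 5 highest by CPM of larger HMG-box subgroups and of the endocrine factors with Neurog3, the highest marker of each other cell type, and the 3 listed genes nearest to each detected member. Some genes that meet this rule are not reported here and stay in the counts. Alternatives were DESeq2 1.42.0 size factors, plain column totals, Rn45s left out of the totals, other exon lengths, no count filter, detection limits of 0.5 and 5 CPM, and leaving out each replicate.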

Additional observations from a re-analysis of the deposited data

How the results depend on the processing

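All 4 members kept the direction and the call of their difference between the libraries under plain column totals, DESeq2 size factors, Rn45s left out and no count filter. For Tox3 the log2 ratio ranged from 0.05 to 0.07 and the exact binomial adjusted p from 0.000266 to 0.0219. The number of genes differing was 6410 when a 2-fold difference was also required, against 11510. With Rn45s left out of the totals Tox3 was at 945 CPM, since all levels rise. With exons of all annotated transcripts, which lengthen Tox from 3961 to 7609 bases and Tox4 from 5350 to 6950, the log2 ratio per kb was 2.85 for Tox3 to Tox (1.91 with basic transcripts) and 4.78 for Tox3 to Tox4 (4.40).

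Without replicate 1 or replicate 2 in turn, the level of Tox was 446 and 181 CPM, its rank 255 to 1143 and that of Tox3 66 to 68. The counts of detected markers were 1 and 1 for T and NK cells, 4 to 7 for mesenchyme and 0 to 1 for endothelium. Other limits gave 1 T and NK marker at 0.5 CPM and 0 neural crest markers at 5 CPM. Without replicate 1, 4 of 4 members passed 1 CPM. No paired analysis was possible because the series holds 1 group.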
